A study of Homo sapiens with 18 samples.

Results

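The transcriptomes of HCC827 and H1975, a pair of human lung adenocarcinoma cell lines, were compared by Oxford Nanopore (ONT) long-read cDNA sequencing. The comparison takes in 6 of the 18 libraries of the study, the 3 labelled HCC827 ONT and the 3 labelled H1975 ONT, and covers every Ensembl gene. No agent was applied to either line. Per the labels, both lines came from ATCC, were cultured in RPMI medium with fetal calf serum and antibiotics, and were frozen as single-cell suspensions after growing, each sample independently, to near confluence. Poly(A) mRNA carrying synthetic spike-in RNAs was converted to cDNA from 1.5 ng of input with 14 PCR cycles, and the barcoded libraries were pooled over 5 PromethION flow cells. Each line descends from 1 tumour, so a difference between them is a difference between 2 cell lines and not between classes of tumour.

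Both lines depend on mutant EGFR, the receptor tyrosine kinase that binds epidermal growth factor and its relatives, pairs with ERBB2 or ERBB3 and signals through the RAS-MAPK and PI3K-AKT cascades. HCC827 is known for a kinase-domain deletion carried on an amplified EGFR locus. H1975 is known for an activating point mutation with a second substitution that blocks early EGFR inhibitors. Adenocarcinoma cells keep programmes of the alveolar and airway epithelium to differing degrees, and can take on mesenchymal genes such as those for vimentin and fibrillar collagens.

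Gene totals were 116497461, 93412717 and 91344058 counts in HCC827 replicates 1 to 3, against 92417847, 81467393 and 82342587 in H1975 replicates 1 to 3. Genes with 10 or more counts numbered 26239, 25853 and 24625 in HCC827 and 27534, 26994 and 27098 in H1975. The groups did not overlap, and the exact two-sided permutation p was 0.1, the smallest that 3 against 3 libraries allow. HCC827 libraries varied more among themselves, with a biological coefficient of variation of 0.234, than H1975 libraries, with 0.0855. HCC827 replicate 2 stood apart. Its counts differed from those of replicates 1 and 3 with a mean chi-square per gene of 104 and 116, against 49.4 between replicates 1 and 3, and the call counts without it are given with the processing alternatives. No pair of libraries agreed within sampling noise. The median absolute log2 difference per gene was 0.241 to 0.441 between HCC827 libraries and 0.144 to 0.177 between H1975 libraries, against 0.852 to 0.948 between libraries of different lines.

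Of 27366 genes tested, 17163 (62.7%) were called at an adjusted p below 0.05 by edgeR's quasi-likelihood test. In HCC827, 8503 (31.1%) were higher and 8660 (31.6%) lower, and the median log2 fold of all genes tested was -0.02. The counts of each gene list below are to be read beside these shares. Log2 folds are HCC827 over H1975 with their standard error, from 3 libraries per line, and levels are CPM, counts per 1000000 counts of scaled library size. A call alone is therefore common, and the size of a difference separates genes better: a called log2 fold past 5 was reached by 231 genes (0.844%) upward and 383 genes (1.4%) downward. Direction also changed with the mean level of both lines. Among the 2737 genes of lowest level (0.0502 to 0.19 CPM), 350 were higher and 957 lower in HCC827 (median log2 fold -0.53). Among the 2737 of highest level (38.7 to 6462 CPM), 1376 were higher and 552 lower (median 0.37). The shares of all genes tested are thus not matched in level to lists of mostly low or mostly abundant genes. Lists were not compared with genes of like level. In these bulk libraries fewer cells expressing a gene and less RNA per cell cannot be told apart. The p-values rest on the spread between libraries of cultures that the labels describe as grown independently. That spread was fitted per gene as a value shared by both lines. HCC827 libraries varied more than H1975 libraries, so the shared value matches neither line exactly.

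**Figure D1:**
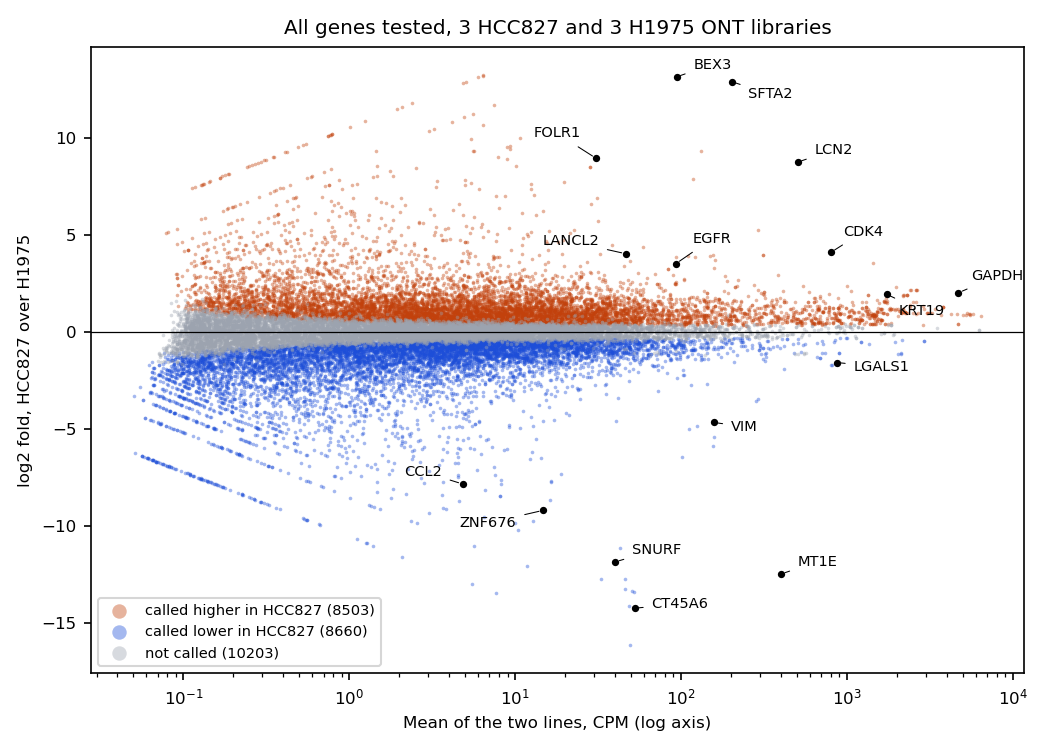
Log2 fold of HCC827 over H1975 (vertical axis) against the mean level of both lines in CPM (horizontal log axis) for the 27366 genes tested, 3 libraries per line. Each point is a gene, coloured by whether it was called higher or lower in HCC827, and the black points are named genes, with BEX3, SFTA2 and LCN2 far above 0 and MT1E, SNURF and CT45A6 far below.

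Of the 4 receptor genes of the family, 3 were higher in HCC827 and ERBB4 was not called. EGFR (GRCh38 chromosome 7, 55019017 to 55211628, plus strand) had 169, 227 and 118 CPM in HCC827, against 15.6, 13.8 and 15.5 CPM in H1975, a log2 fold of 3.52 ± 0.23 (adjusted p = 4.66e-07). ERBB2, its partner without a known ligand, had 67.3, 65.9 and 68.9 CPM in HCC827, against 28.9, 30.5 and 29.4 CPM in H1975 (1.19 ± 0.12, adjusted p = 1.26e-05). ERBB3, a receptor with little kinase activity of its own, had a log2 fold of 1.11 ± 0.19. For EGFR, ERBB2 and ERBB3 the 3 HCC827 libraries lay above the 3 H1975 libraries. Groups did not overlap for 69.1% of all genes tested. EGFR varied by nearly a factor of 2 among the HCC827 libraries. ERBB4, the receptor of neuregulins, had 0.560, 0.780 and 0.438 CPM in HCC827 and 0.602, 0.375 and 0.447 CPM in H1975, which overlapped (0.32 ± 0.28, adjusted p = 0.341). Exons of EGFR, ERBB2 and ERBB3 overlap those of EGFR-AS1, of MIEN1 and PGAP3, and of a long non-coding gene, and since strand use in counting is not stated their counts are uncertain to that extent.

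The ligands split by gene. AREG, encoding amphiregulin, had 42.4, 39.3 and 38.2 CPM in HCC827, against 18.5, 19.2 and 23.6 CPM in H1975 (0.97 ± 0.14, adjusted p = 0.000168). EREG, encoding epiregulin from the same chromosome 4 cluster, had 11.2, 11.2 and 11.3 CPM in HCC827, against 3.76, 5.11 and 5.77 CPM in H1975 (1.20 ± 0.17, adjusted p = 0.000138). TGFA and HBEGF, encoding transforming growth factor alpha and heparin-binding EGF, ran the other way. TGFA had 0.884, 1.35 and 0.903 CPM in HCC827, against 4.44, 4.18 and 4.84 CPM in H1975 (-2.10 ± 0.20, adjusted p = 7.78e-06). HBEGF had 1.44, 1.32 and 1.57 CPM in HCC827, against 5.29, 5.61 and 6.89 CPM in H1975 (-2.04 ± 0.17, adjusted p = 3.29e-06). The library groups of these 4 ligand genes did not overlap, as held for 69.1% of all genes tested, and over the 8 ligands tested 4 were higher and 3 lower in HCC827, with a median log2 fold of -0.09.

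Genes that act against EGFR signalling or report on the MAPK cascade moved both ways. Of 10 brakes and adaptors 3 were higher and 3 lower, close to the shares of all genes tested, 31.1% higher and 31.6% lower. Of 18 MAPK output genes 8 were higher and 2 lower (median 0.11). SPRY1, a Sprouty feedback inhibitor, had 26.0, 23.3 and 15.4 CPM in HCC827, against 5.83, 4.16 and 4.79 CPM in H1975 (2.13 ± 0.22, adjusted p = 1.11e-05). FOSL1, an AP-1 subunit induced by MAPK signalling, had 42.5, 50.5 and 48.8 CPM in HCC827, against 18.9, 23.5 and 19.2 CPM in H1975 (1.20 ± 0.15, adjusted p = 4.16e-05). SPRED2, a RAF inhibitor, was lower in HCC827 at -2.01. AXL, a receptor kinase linked to mesenchymal states, had 1.26, 1.38 and 0.903 CPM in HCC827, against 7.04, 6.57 and 6.89 CPM in H1975 (-2.52 ± 0.19, adjusted p = 1.25e-06). MET, the hepatocyte growth factor receptor, was higher in HCC827 at 0.76 ± 0.14, a difference no longer called when a fold of 1.5 was tested, a stricter test that 40% of all genes passed.

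The genes next to EGFR on 7p11 were higher in HCC827 as a block. Of 12 tested neighbours 10 were higher and none lower, with a median log2 fold of 1.66, and their summed level was 5001 to 5830 CPM in HCC827, against 1064 to 1089 CPM in H1975. LANCL2, a LanC-like protein gene (chromosome 7, 55365337 to 55433737), had 84.6, 88.0 and 89.7 CPM in HCC827, against 5.11, 5.78 and 5.22 CPM in H1975 (4.03 ± 0.14, adjusted p = 9.11e-09). VOPP1 (chromosome 7, 55436056 to 55572988), named as overexpressed in cancer, had 260, 370 and 263 CPM in HCC827, against 24.4, 21.2 and 22.6 CPM in H1975 (3.71 ± 0.17, adjusted p = 4.95e-08). SEC61G, a translocon subunit gene, had 3025, 2347 and 2588 CPM in HCC827, against 226, 236 and 227 CPM in H1975 (3.53 ± 0.13). LANCL2 and VOPP1 share no exon with another annotated gene. NUPR2 lies farther along the same arm (chromosome 7, 56114681 to 56116417) and went against its neighbourhood, with 0.0108, 0.0355 and 0.0565 CPM in HCC827, against 7.49, 7.22 and 7.29 CPM in H1975 (-7.76 ± 0.30, adjusted p = 1.41e-08).

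Cell cycle regulators differed strongly at a few genes. CDK4, the kinase that opens G1, had 1491, 1106 and 1947 CPM in HCC827, against 82.3, 95.6 and 86.6 CPM in H1975 (4.10 ± 0.21), but TSPAN31 on the opposite strand carried 100% of the CDK4 count, so the level of each is uncertain. Among the 12 genes listed for its 12q14 neighbourhood 6 were higher and 1 lower (median 0.43). The greatest log2 fold on that list was also 4.10, so the counts that CDK4 and TSPAN31 share enter it. CDKN2A, encoding the CDK4 inhibitor p16 and the p53 stabiliser p14ARF, had 274, 254 and 336 CPM in HCC827, against 28.5, 28.1 and 30.9 CPM in H1975 (3.3 ± 0.15, adjusted p = 3.71e-08). CDKN2B-AS1 overlaps CDKN2A exons, and a long non-coding gene within the CDKN2A span had 117% of the CDKN2A count, so that level is uncertain. CDKN1A, the p53-induced inhibitor p21, had 9.18, 7.06 and 11.1 CPM in HCC827, against 48.3, 41.7 and 46.2 CPM in H1975 (-2.32 ± 0.18, adjusted p = 1.75e-06). Of 26 p53 target genes tested 6 were higher and 6 lower (median 0.11).

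Among 34 replication and mitosis genes 14 were higher and 9 lower (median 0.19). CDC20, the activator of the anaphase-promoting complex, had 111, 125 and 136 CPM in HCC827, against 24.0, 25.7 and 18.4 CPM in H1975 (2.45 ± 0.16, adjusted p = 6.07e-07). UHRF1, a reader of hemimethylated DNA, had 1.47, 1.60 and 1.10 CPM in HCC827, against 4.44, 4.12 and 3.90 CPM in H1975 (-1.58 ± 0.18). PCNA, the replication clamp, was lower at -0.92 ± 0.17. Of 16 BCL2 family genes 8 were higher and 4 lower. The pro-death genes BIK and BMF were among the higher ones: BIK had 26.2, 21.6 and 31.0 CPM in HCC827, against 1.56, 1.58 and 1.90 CPM in H1975 (3.97 ± 0.19), and BMF had 12.0, 13.5 and 12.5 CPM, against 1.12, 1.06 and 1.15 CPM (3.51 ± 0.16). BCL2, the founding survival gene, was low in both lines at 0.0539, 0.0473 and 0.0706 CPM in HCC827 and 0.917, 0.841 and 1.03 CPM in H1975 (-4.01 ± 0.30).

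**Figure D2:**
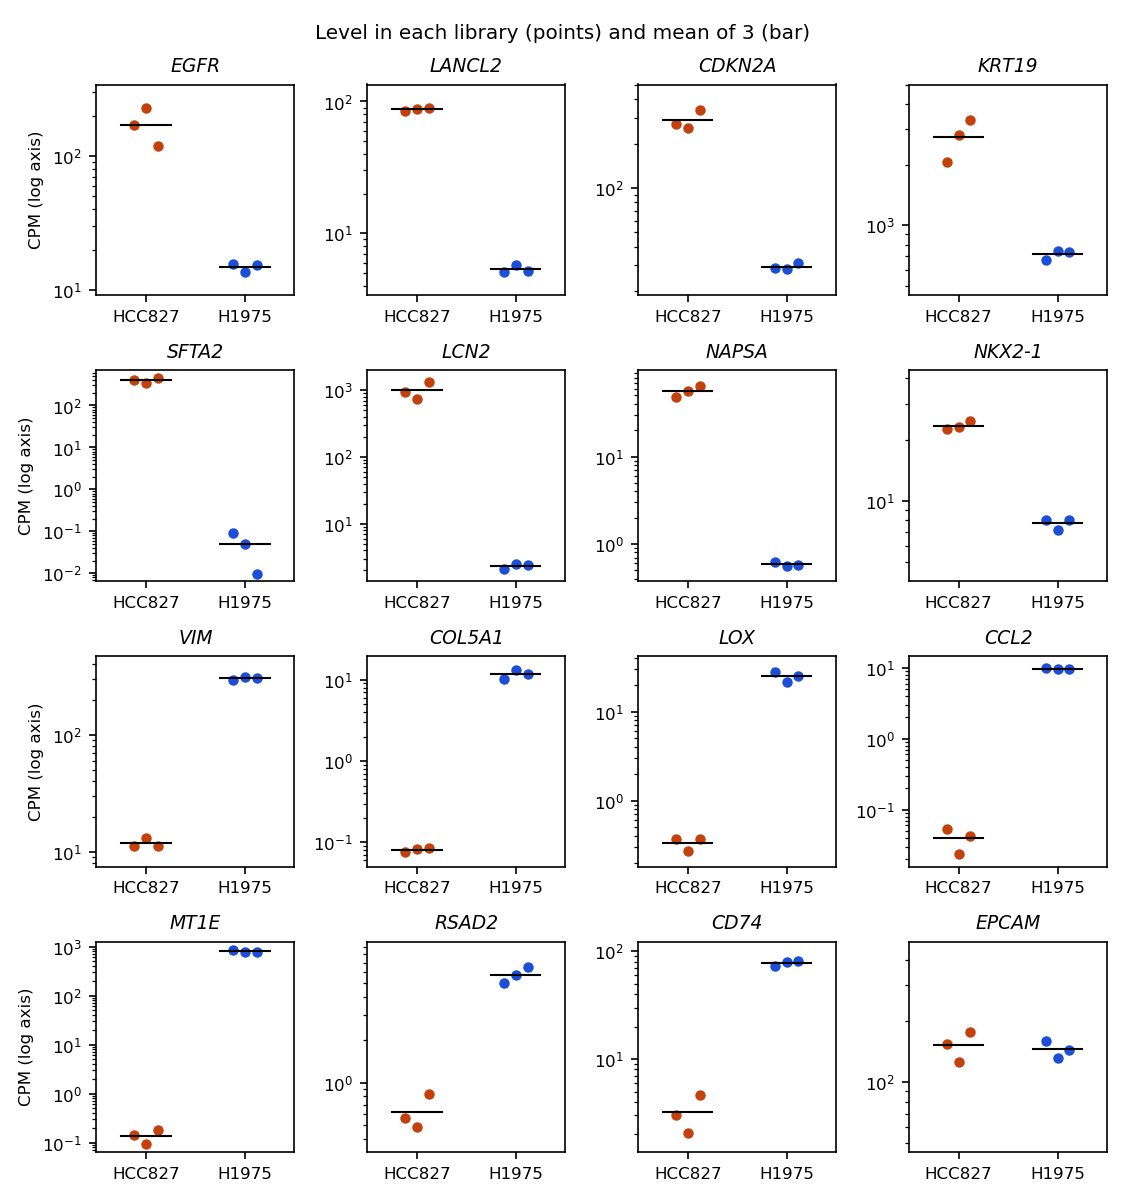
Level in CPM (log axis, its own range in each panel) of 16 named genes in each of 3 HCC827 libraries (left) and 3 H1975 libraries (right), with a bar at the mean of 3. Groups are apart in every panel except EPCAM, where the libraries of both lines lie between 125 and 177 CPM.

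Both lines carried epithelial genes. EPCAM, the epithelial adhesion molecule, had 154, 125 and 177 CPM in HCC827 and 160, 132 and 143 CPM in H1975, which overlapped (0.07 ± 0.15, adjusted p = 0.706). CDH1, encoding E-cadherin, had 81.1, 71.6 and 61.5 CPM in HCC827, against 47.1, 34.7 and 44.3 CPM in H1975 (0.76 ± 0.16, adjusted p = 0.00171), a call lost when a fold of 1.5 was tested. KRT19, a simple epithelial keratin, had 2062, 2818 and 3353 CPM in HCC827, against 671, 742 and 736 CPM in H1975 (1.94 ± 0.17, adjusted p = 3.72e-06). All 6 simple epithelial keratins that passed the count filter were higher in HCC827, with a median log2 fold of 2.01. KRT20, an intestinal keratin, had 5.73, 2.97 and 9.50 CPM in HCC827 and 1 count over the 3 H1975 libraries, a ratio of 1822 with a 95% counting interval of 326 to 72005.

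Junction genes leaned to HCC827, with 15 of 27 higher and 3 lower (median 0.47). CLDN3, a tight junction claudin, had 32.8, 59.5 and 42.2 CPM in HCC827, against 4, 4.41 and 4.28 CPM in H1975 (3.41 ± 0.22, adjusted p = 4.75e-07). DSP, encoding desmoplakin of the desmosome, was an exception with 11.8, 19.4 and 11.1 CPM in HCC827, against 32.2, 29.0 and 30.5 CPM in H1975 (-1.12 ± 0.21, adjusted p = 0.000742). Of 15 epithelial transcription and splicing regulators 11 were higher and 1 lower (median 1.03). RAB25, an epithelial recycling GTPase, had 71.3, 57.2 and 90.3 CPM in HCC827, against 16.2, 14.5 and 14.6 CPM in H1975 (2.27 ± 0.18, adjusted p = 1.80e-06).

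Mesenchymal genes were mostly lower in HCC827. Of 7 transcription factors tested, among 10 listed, 6 were lower and 1 higher (median -2.42). SNAI1, encoding the E-cadherin repressor Snail, had 0.797, 0.898 and 0.847 CPM in HCC827, against 9.88, 8.09 and 8.48 CPM in H1975 (-3.38 ± 0.17, adjusted p = 8.36e-08). PRRX1 had 0 counts in HCC827 and 53 over the 3 H1975 libraries, at least 14.1-fold lower with a floor of 3 counts over the group. The exception was TWIST2, with 2.84, 5.27 and 3.42 CPM in HCC827, against 0.189, 0.284 and 0.228 CPM in H1975 (4.04 ± 0.29, adjusted p = 1.05e-06), whereas TWIST1 was lower at -3.62 ± 0.48 and under 1 CPM in every library.

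Of 17 mesenchymal structural genes 13 were lower and 1 higher (median -1.71). VIM, encoding vimentin, had 11.3, 13.2 and 11.2 CPM in HCC827, against 296, 314 and 305 CPM in H1975 (-4.68 ± 0.14, adjusted p = 4.17e-09), with antisense genes over its exons. LGALS1, encoding galectin-1, had 406, 439 and 455 CPM in HCC827, against 1356, 1281 and 1270 CPM in H1975 (-1.59 ± 0.11). CCN1, a matricellular protein gene, was the member that was higher, with 53.7, 63.8 and 56.4 CPM in HCC827, against 8.38, 10.6 and 8.79 CPM in H1975 (2.64 ± 0.15, adjusted p = 2.37e-07). No library group overlapped for any of these 3 genes, as held for 69.1% of all genes tested.

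Collagen genes were mostly lower in HCC827. Of 19 tested, 14 were lower and 4 higher in HCC827 (median -1.57). COL5A1, of fibrillar collagen V, had 0.0754, 0.0828 and 0.0847 CPM in HCC827, against 10.1, 13.1 and 11.8 CPM in H1975 (-7.15 ± 0.23, adjusted p = 5.95e-09). COL1A2, of collagen I, had 2 counts over the HCC827 libraries and 1884 over the H1975 libraries, a ratio of 753 with a 95% counting interval of 208 to 6221. COL4A5, of basement membrane collagen IV, was higher instead, with 1.10, 1.23 and 1.17 CPM in HCC827, against 0.0719, 0.0811 and 0.0695 CPM in H1975 (3.95 ± 0.26, adjusted p = 5.15e-07). Among collagen modifying enzymes 9 of 14 were lower and 4 higher. SERPINH1, the collagen chaperone HSP47, had 7.24, 7.92 and 8.40 CPM in HCC827, against 57.0, 51.8 and 48.4 CPM in H1975 (-2.74 ± 0.14, adjusted p = 1.10e-07).

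Matrix proteases and their inhibitors had 9 of 18 lower and 4 higher. MMP14, a membrane-bound collagenase, had 0.0539, 0.166 and 0.113 CPM in HCC827, against 6.72, 7.29 and 7.72 CPM in H1975 (-6.03 ± 0.28, adjusted p = 5.01e-08), whereas MMP7, an epithelial matrilysin, was higher at 2.91 ± 0.32 and near 1 CPM or below throughout. LAMB1, a laminin chain, had 28.5, 33.5 and 30.1 CPM in HCC827, against 4.52, 3.54 and 3.87 CPM in H1975 (2.95 ± 0.16), although its exons overlap DLD on the other strand. Of 20 integrins and laminins 5 were higher and 8 lower.

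Markers of cell types foreign to these cultures were scarce. Of 11 fibroblast markers 4 passed the filter, 2 higher and 2 lower in HCC827, and the tested members summed to 2.81 to 3.20 CPM in HCC827, against 7.95 to 10.1 CPM in H1975. COL3A1 had 0 counts in every HCC827 library and 1, 8 and 2 in H1975, and DCN 0 counts in HCC827 and 2, 0 and 1 in H1975. Of 5 endothelial markers tested, among 9, 1 was higher and 4 lower, summing to 1.49 to 1.99 CPM in HCC827 and 4.15 to 4.87 CPM in H1975. Hematopoietic markers summed to 74.4 to 87.3 CPM in HCC827 and 36.6 to 43.2 CPM in H1975, with 3 higher and 3 lower among the 6 of 12 tested. CD68 and LCP1 made up most of that level, while PTPRC, the pan-leukocyte marker, had 1, 0 and 0 counts in HCC827 and 3, 3 and 0 in H1975.

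Lung lineage genes set the lines apart at some of the greatest folds. SFTA2, a surfactant-associated secreted protein gene, had 405, 343 and 461 CPM in HCC827, against 0.0899, 0.0507 and 0.00993 CPM in H1975 (12.90 ± 0.36, adjusted p = 2.77e-09), with MUCL3 and HCG21 over its exons. NAPSA, the aspartic protease that processes surfactant protein B, had 47.6, 56.9 and 64.8 CPM in HCC827, against 0.629, 0.568 and 0.576 CPM in H1975 (6.57 ± 0.19, adjusted p = 3.94e-09), with NR1H2 on its opposite strand. NKX2-1, encoding the lineage factor TTF-1, had 22.6, 23 and 24.6 CPM in HCC827, against 8.03, 7.20 and 8.05 CPM in H1975 (1.59 ± 0.14), again with neighbours over its exons. NKX2-1 was present in every library of both lines, with the HCC827 libraries above those of H1975. SFTPC, encoding surfactant protein C, had 0, 1 and 0 counts in HCC827 and 2, 1 and 1 in H1975. It fell below the count filter, as did the listed alveolar genes SFTPD, AQP4, AGER and PDPN. Of 13 alveolar genes tested, among 19 listed, 10 were higher and 2 lower (median 1.52). The lower ones were LAMP3, a lamellar body protein gene, at -1.96 ± 0.18, and CAV1, the caveolin of flat alveolar cells, with 78.4, 60.9 and 61.2 CPM in HCC827, against 182, 175 and 169 CPM in H1975 (-1.39 ± 0.14).

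Airway secretory genes that passed the filter stood higher in HCC827, with 14 of 18 tested, among 25 listed, higher and 2 lower (median 3.43). They summed to 1391 to 1848 CPM in HCC827 and 450 to 527 CPM in H1975. The other 7 listed genes, SCGB1A1, SCGB3A1, SCGB3A2, BPIFA1, BPIFB1, TFF3 and LTF, had 10 counts or fewer in every library of both lines. LCN2, encoding the iron-trapping defence protein lipocalin-2 (chromosome 9, 128149071 to 128153453), had 955, 739 and 1327 CPM in HCC827, against 2.09, 2.49 and 2.43 CPM in H1975 (8.75 ± 0.27, adjusted p = 4.17e-09). MUC5AC, a gel-forming airway and stomach mucin, had 5.02, 8.03 and 7.27 CPM in HCC827, against 0.00899, 0.0304 and 0.0496 CPM in H1975 (7.80 ± 0.37, adjusted p = 5.13e-08). TFF1, a trefoil peptide gene of the stomach, went the other way with 0 counts in HCC827 and 86 in H1975, at least 22.9-fold lower. Of 8 gastrointestinal genes tested 6 were higher and 1 lower. TP63, the basal and squamous factor, had 1.11, 1.60 and 0.734 CPM in HCC827, against 4.54, 4.18 and 4.65 CPM in H1975 (-1.95 ± 0.24, adjusted p = 5.07e-05), although 10 of 16 basal and squamous genes were higher and 4 lower (median 1.22). The summed level of those 16 genes was lower in HCC827, at 103 to 112 CPM, against 488 to 589 CPM in H1975. S100A2, whose levels are given with the calcium-binding genes below, made up most of the H1975 sum. The direction of the sum is therefore that of S100A2 and does not describe the list as a whole.

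Lung lineage transcription factors went both ways, with 7 of 14 tested higher and 4 lower (median 0.45). FOXA1, a pioneer factor of endodermal enhancers, had 8.60, 27.0 and 4.46 CPM in HCC827, against 0.342, 0.487 and 0.258 CPM in H1975 (5.20 ± 0.67, adjusted p = 0.000115). HCC827 replicate 2, the library that stood apart, held the highest FOXA1 value, yet each HCC827 library was above each H1975 library. SOX2, a foregut factor, had 19.8, 22.7 and 13.7 CPM in HCC827, against 2.60, 2.25 and 2.12 CPM in H1975 (3.01 ± 0.21), within the span of the long non-coding SOX2-OT. The lower members included SOX9, a factor of distal lung progenitors, with 0.647, 0.567 and 0.522 CPM in HCC827, against 3.90, 3.71 and 3.39 CPM in H1975 (-2.66 ± 0.18, adjusted p = 8.00e-07), although SOX9-AS1 lies in its span. FOXA2, a close relative of FOXA1, had 1.68, 2.88 and 2.29 CPM in HCC827, against 9.65, 5.92 and 7.59 CPM in H1975 (-1.76 ± 0.24, adjusted p = 8.36e-05).

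The HOX genes, homeodomain factors that give cells positional identity, differed by cluster. Of 39 listed genes 28 passed the filter, 19 higher and 3 lower (median 2.34). All 8 HOXB genes tested were higher with a median log2 fold of 6.24, as were 8 of 9 HOXA genes with a median of 2.32. HOXB2 had 3.67, 2.83 and 5.18 CPM in HCC827 and 0 counts in H1975, at least 395-fold higher, and HOXB13 had 1.51, 1.21 and 1.88 CPM in HCC827 and 0 counts in H1975, at least 156-fold higher. In the HOXC cluster 2 of 7 were higher and none lower (median 0.19), and in the HOXD cluster 1 of 4 was higher and 3 were lower. HOXD4 had 0 counts in HCC827, against 1.08, 1.09 and 1.14 CPM in H1975, at least 91.4-fold lower. HOXD3 was lower at -3.99 ± 0.26. A gene seen in 1 line alone passes the filter through that line, so these counts describe the clusters and support nothing further. With genes at 0 counts in 1 line set to their bound, the median of the list was the same. HOXB2 and HOXD3 overlap antisense genes.

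**Figure D3:**
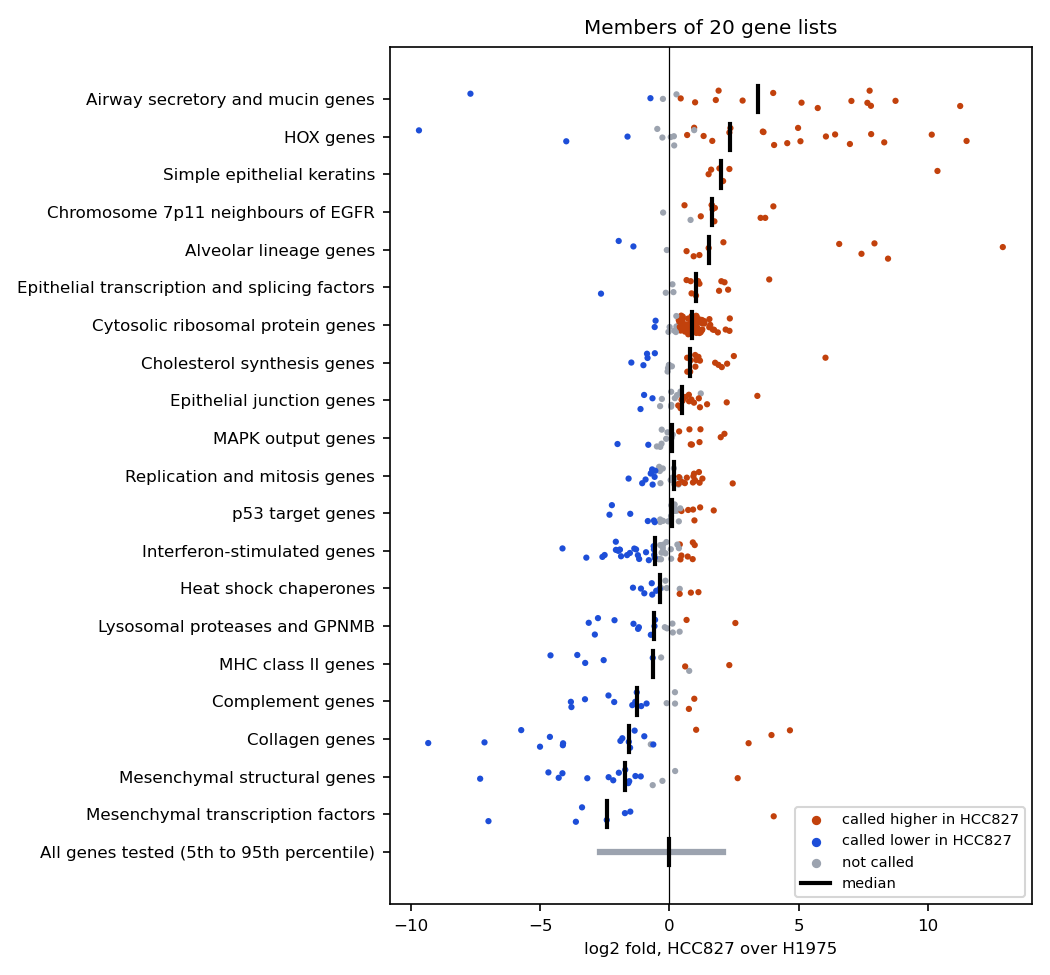
Log2 fold of HCC827 over H1975 (horizontal axis) of the tested members of 20 gene lists, from secretory lists at the top to mesenchymal lists at the bottom. Points are genes coloured by call, black ticks are list medians, and the grey bar at the bottom spans the 5th to 95th percentile of all genes tested, whose median was -0.02.

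Interferon-stimulated genes, which restrict viruses and are switched on through the ISGF3 complex at short promoter elements, were lower in HCC827 in part. Of 43 tested, 22 were lower and 7 higher (median -0.56). The core element was sought as GAAANNGAAA on both strands in the 250 bases before each start that RefSeq lists for GRCh38.p14. It was present in 24 of 33 listed genes with a promoter entry (72.7%), against 462 of 14091 tested genes (3.28%). Stretches of 4 of these promoters are shown because the genes carrying them differ in direction. They read 5′ to 3′ on the gene's strand, with the element or its reverse complement in capitals, at chr2:6877612-6877661 (RSAD2), chr10:89392487-89392549 (IFIT1), chr10:89327821-89327904 (IFIT3) and chr21:41431834-41431883 (MX1), all on the plus strand.
RSAD2: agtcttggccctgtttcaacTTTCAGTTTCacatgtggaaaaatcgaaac
IFIT1: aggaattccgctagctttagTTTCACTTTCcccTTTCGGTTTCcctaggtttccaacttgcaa
IFIT3: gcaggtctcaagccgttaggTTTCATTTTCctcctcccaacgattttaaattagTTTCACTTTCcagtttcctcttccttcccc
MX1: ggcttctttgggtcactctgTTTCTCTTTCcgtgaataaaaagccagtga

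The element was about as frequent among lower genes as among the others. It was in 13 of 18 listed genes that were lower (72.2%) and in 11 of 15 that were not (73.3%), and the median log2 fold was -0.59 with the element and -0.59 without it. RSAD2, encoding viperin, had 0.560, 0.485 and 0.833 CPM in HCC827, against 5.00, 5.75 and 6.53 CPM in H1975 (-3.21 ± 0.23, adjusted p = 9.14e-07). IFIT1, an RNA-binding antiviral protein gene, had 4.99, 3.63 and 6.22 CPM in HCC827, against 24.3, 28.3 and 31.5 CPM in H1975 (-2.5 ± 0.21). IFIT3 had 6.52, 7.13 and 7.69 CPM in HCC827, against 25.8, 26.9 and 28.6 CPM in H1975 (-1.93 ± 0.14). MX1, a dynamin-like antiviral GTPase gene with the same element, was higher in HCC827 at 26.1, 42.3 and 37.6 CPM, against 16.5, 18.9 and 21.0 CPM in H1975 (0.91 ± 0.19, adjusted p = 0.00154). IFIT1 and IFIT3 were picked after their values were seen, as carriers of 2 copies of the element. CMPK2 and RSAD2 overlap each other on opposite strands, as IFIT3 does with LIPA and MX1 with TMPRSS2.

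Antigen presentation divided by class. MHC class I genes had 6 of 19 higher and 6 lower (median 0.01), close to the 31.1% higher and 31.6% lower of all genes tested. HLA-C had 124, 124 and 187 CPM in HCC827, against 63.3, 68.1 and 66.4 CPM in H1975 (1.13 ± 0.17), while B2M, the shared light chain, was lower at -0.69 ± 0.17, a call lost when a fold of 1.5 was tested. MHC class II genes had 5 of 9 lower and 2 higher (median -0.64), and summed to 21.3 to 33.6 CPM in HCC827, against 109 to 118 CPM in H1975. CD74, the invariant chain, had 3.01, 2.05 and 4.63 CPM in HCC827, against 72.2, 80.0 and 81.4 CPM in H1975 (-4.60 ± 0.27, adjusted p = 2.5e-07). HLA-DRA, the class II alpha chain, had 0.539, 0.272 and 0.762 CPM in HCC827, against 5.03, 4.53 and 5.33 CPM in H1975 (-3.26 ± 0.29). HLA-DRB1 was higher at 2.32 ± 0.30. Alleles and copies of the HLA genes resemble each other, so the split of reads among them is uncertain.

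Secreted immune genes had a like mixture. Of 15 complement genes 10 were lower and 2 higher in HCC827 (median -1.26). Exons of C1R, CFB, C4A and C4B overlap those of other genes. C1RL had 111% of the C1R count and C4A-AS1 had 89.0% of the C4A count, so the levels of these genes are uncertain. CCL2, the monocyte chemokine, had 0.0539, 0.0236 and 0.0423 CPM in HCC827, against 9.76, 9.51 and 9.54 CPM in H1975 (-7.85 ± 0.25, adjusted p = 5.95e-09). CXCL5, a neutrophil chemokine, had 5.42, 5.72 and 5.14 CPM in HCC827, against 0.476, 0.426 and 0.536 CPM in H1975 (3.50 ± 0.18, adjusted p = 9.16e-08). IL11, a cytokine of the IL-6 family, was lower at -3.28 ± 0.25. Over 23 chemokines and cytokines 7 were higher and 9 lower.

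Metallothioneins, small metal-binding proteins encoded side by side on chromosome 16, held one of the widest gaps. MT1E (chromosome 16, 56625475 to 56627112) had 0.140, 0.0946 and 0.183 CPM in HCC827, against 838, 776 and 787 CPM in H1975 (-12.49 ± 0.23, adjusted p = 4.32e-10). MT2A, the most abundant member, had 1761, 1879 and 1852 CPM in HCC827, against 2520, 2447 and 2443 CPM in H1975 (-0.43 ± 0.10, adjusted p = 0.00374), a call lost when a fold of 1.5 was tested. MT1F was higher, with 23.4, 23.5 and 21.9 CPM in HCC827, against 12.2, 11.3 and 12.5 CPM in H1975 (0.93 ± 0.13, adjusted p = 0.000115). Of the 9 members 5 were lower and 2 higher (median -0.46). The members resemble each other in sequence, so reads may be split uncertainly among them, and MT1M was lower at -6.46.

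Stress and metabolic programmes were mixed. Among NRF2 antioxidant targets 13 of 28 were higher and 9 lower. HMOX1, heme oxygenase-1, had 3.06, 3.24 and 3.87 CPM in HCC827, against 30.6, 29.4 and 22.6 CPM in H1975 (-3.02 ± 0.18, adjusted p = 2.46e-07), and AKR1C1, an aldo-keto reductase with close paralogs, was lower at -4.02 ± 0.24. Of 25 unfolded protein and ATF4 response genes 5 were higher and 10 lower, and of 14 heat shock chaperones 3 were higher and 7 lower. HSP90AA1, the inducible HSP90, had 181, 184 and 148 CPM in HCC827, against 532, 392 and 435 CPM in H1975 (-1.41 ± 0.15, adjusted p = 1.66e-05).

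Cholesterol synthesis genes leaned to HCC827, with 15 of 25 higher and 5 lower (median 0.81). Fatty acid synthesis genes did not, with 5 of 15 higher and 3 lower (median 0.02). FASN, the fatty acid synthase, had 25.4, 61.0 and 23.2 CPM in HCC827, against 7.81, 7 and 7.49 CPM in H1975 (2.30 ± 0.32, adjusted p = 0.000118). HCC827 replicate 2 was the highest library for FASN, and replicates 1 and 3 still lay above all 3 of H1975.

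Glycolysis and hypoxia genes had 9 of 30 higher and 15 lower (median -0.38). SLC2A3, the high-affinity glucose carrier GLUT3, had 0.399, 0.461 and 0.452 CPM in HCC827, against 7.12, 7.88 and 6.19 CPM in H1975 (-4.01 ± 0.19, adjusted p = 5.05e-08). CA9, a hypoxia-induced carbonic anhydrase, had 3 counts over the HCC827 libraries and 2286 over the H1975 libraries, a ratio of 609 with a 95% counting interval of 208 to 2955. GAPDH, often used as a reference gene, had 6544, 6777 and 9260 CPM in HCC827, against 1853, 1919 and 1821 CPM in H1975 (2.01 ± 0.15, adjusted p = 1.04e-06), but an opposite-strand gene with 98.7% of its count shares its exons. ACTB, another reference gene, was lower at -0.63 ± 0.11, a call lost when a fold of 1.5 was tested. Lysosomal proteases and GPNMB had 10 of 17 lower and 2 higher. GPNMB, a lysosome-linked glycoprotein, had 3.84, 3.06 and 5.48 CPM in HCC827, against 35.2, 35.1 and 37.0 CPM in H1975 (-3.12 ± 0.21), while CTSS, encoding cathepsin S, was higher at 2.55 ± 0.19. Among calcium-binding genes, S100P had 38.0, 29.2 and 40.8 CPM in HCC827, against 3.51, 3.27 and 3.52 CPM in H1975 (3.39 ± 0.17), and S100A2 had 51.9, 42.5 and 47.7 CPM in HCC827, against 567, 466 and 563 CPM in H1975 (-3.49 ± 0.15). S100P lies on chromosome 4 and S100A2 on chromosome 1. Neither overlapped between the lines, as held for 69.1% of all genes tested.

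Genes for cytosolic ribosomal proteins, the protein part of the translation machinery, were higher in HCC827 almost throughout. Of 78 tested, 69 were higher and 2 lower, with a median log2 fold of 0.89. Their share of all gene counts, which needs no scaling between libraries, was 12.9, 12.1 and 12.4% in HCC827, against 9.69, 9.67 and 9.57% in H1975. These shares differ less between the lines than the log2 folds do. The log2 folds and CPM also carry the TMM factors, 0.776 to 0.906 in HCC827 and 1.20 to 1.22 in H1975, which widen the gap. RPS19, a small-subunit protein gene, had 3550, 3290 and 3072 CPM in HCC827, against 661, 656 and 660 CPM in H1975 (2.33 ± 0.11, adjusted p = 6.24e-08). RPS16, also on chromosome 19 and of the small subunit, had 1855, 1604 and 1566 CPM in HCC827, against 337, 335 and 321 CPM in H1975 (2.34 ± 0.12, adjusted p = 9.16e-08). RPS24 was one of the 2 lower members, with 440, 520 and 624 CPM in HCC827, against 833, 758 and 755 CPM in H1975 (-0.57 ± 0.14, adjusted p = 0.00486), a call lost when a fold of 1.5 was tested.

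Pseudogenes named for ribosomal protein genes moved with them. Of 912 tested, 707 were higher and 30 lower in HCC827 (median 0.92), whereas of 3745 other pseudogenes 1194 were higher and 984 lower (median 0.10). They took 15.7, 14.9 and 15.2% of all gene counts in HCC827, against 11.6, 11.6 and 11.6% in H1975, more than the ribosomal protein genes themselves. Here too the shares differ less than the log2 folds, which carry the TMM scaling. Such pseudogenes are intronless copies of the mRNAs. The sources used here do not say how reads that match several places were counted. Reads of a parent gene and of its copies therefore cannot be told apart in these counts. Some genes on opposite strands had almost the same count, with BEST1 at 99.5% of FTH1 and TRABD2A at 100% of TMSB10. The same reads may thus enter more than 1 gene, and shares of all gene counts may hold them more than once. With all pseudogenes left out before scaling and testing, an alternative chosen after seeing the data, 14227 of 22593 genes were called.

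Calls were also counted by class of RNA. Of 15661 protein-coding genes tested 4932 were higher and 4978 lower, against 1393 higher and 2372 lower of 6032 long non-coding RNAs. SNHG5, a host gene of small nucleolar RNAs, had 43.8, 38.0 and 48.7 CPM in HCC827, against 530, 507 and 538 CPM in H1975 (-3.59 ± 0.14, adjusted p = 1.49e-08), with other genes over its exons. LINC01511 (chromosome 5, 1353896 to 1380107) had 0, 0.0355 and 0.0141 CPM in HCC827, against 20, 21.3 and 20.7 CPM in H1975 (-10.21 ± 0.35, adjusted p = 8.16e-09). LINC01980 (chromosome 3, 27797552 to 27931579) ran opposite, with 18.9, 14.7 and 19.7 CPM in HCC827, against 0.0360, 0.0101 and 0.0199 CPM in H1975 (9.54 ± 0.30). Roles of LINC01511 and LINC01980 are not described here. All 21 ribosomal RNA genes tested, multi-copy genes, were higher in HCC827 (median 1.36).

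Some genes were present in 1 line and unseen in the other. With at least 300 counts in one line, 16 genes had 0 counts in all H1975 libraries and 15 had 0 counts in all HCC827 libraries. MAGED4, a melanoma antigen family gene with a near-identical copy, had 10.9, 14.2 and 13.4 CPM in HCC827 and 0 counts in H1975, at least 1317-fold higher. TOX3, an HMG-box factor, had 10.7, 10.5 and 9.27 CPM in HCC827 and 0 counts in H1975, at least 1057-fold higher. GNG11, a G-protein gamma subunit gene, had 0 counts in HCC827, against 15.7, 15.1 and 14.8 CPM in H1975, at least 1262-fold lower. CT45A8, of the X-linked CT45 family of germline antigens, had 0 counts in HCC827 and 30339 over the H1975 libraries, at least 8083-fold lower. The CT45 copies are near-identical, so their counts are best read for the family.

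Further genes with wide gaps had traces in the low line. BEX3, a small brain-expressed X-linked family gene (chromosome X, 103376395 to 103378164), had 188, 167 and 208 CPM in HCC827, against 0.00899, 0.0203 and 0.0298 CPM in H1975 (13.15 ± 0.27, adjusted p = 7.60e-10). PDZK1IP1, a membrane protein gene of epithelia, had 217, 197 and 290 CPM in HCC827, against 0.935, 0.902 and 1.12 CPM in H1975 (7.89 ± 0.22, adjusted p = 3.06e-09). DHRS2, a short-chain dehydrogenase gene, had 1.84, 2.47 and 2.46 CPM in HCC827, against 216, 182 and 201 CPM in H1975 (-6.47 ± 0.19, adjusted p = 3.26e-09). At the imprinted SNURF-SNRPN locus on chromosome 15, SNURF had 0.0216, 0.0355 and 0 CPM in HCC827, against 79.1, 81.6 and 80.1 CPM in H1975 (-11.87 ± 0.31), while SNRPN, which shares its exons, had 377, 219 and 361 CPM in HCC827, against 212, 202 and 206 CPM in H1975 (0.62 ± 0.19, adjusted p = 0.0126). The SNRPN call was lost without HCC827 replicate 1, where its log2 fold was 0.50 (adjusted p = 0.0615), and also when a fold of 1.5 was tested. RPL5P1, a ribosomal protein pseudogene within the span of SNRPN, carried 75.3% of the SNRPN count. The SNRPN level and its difference between the lines are therefore uncertain.

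Calls were then summarised by neighbourhood along the chromosomes. In 506 windows of 5 Mb with at least 8 tested protein-coding genes, 8 windows had a median log2 fold above 1 and 21 had one below -1. The highest was the window of EGFR on chromosome 7, where 11 of 14 genes were higher and 1 lower (median 1.64). A run of adjacent windows on chromosome 1 from 40 to 60 Mb had medians of 1.43, 1.19, 1.16 and 1.10. In the first of them 54 of 71 genes were higher and 4 lower, TMEM125 among them with 17.5, 31.5 and 23.6 CPM in HCC827, against 0.638, 0.618 and 0.755 CPM in H1975 (5.17 ± 0.25). At the end of chromosome 17, from 80 Mb, 57 of 66 genes were higher and none lower (median 1.12). Low windows included 60 to 65 Mb of chromosome 18, with 14 of 18 genes lower and 1 higher (median -1.93), and 85 to 90 Mb of chromosome 10, with 26 of 32 lower and 2 higher (median -1.31). DNA copy number was not measured in these libraries, and its part in the result was not tested.

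**Figure D4:**
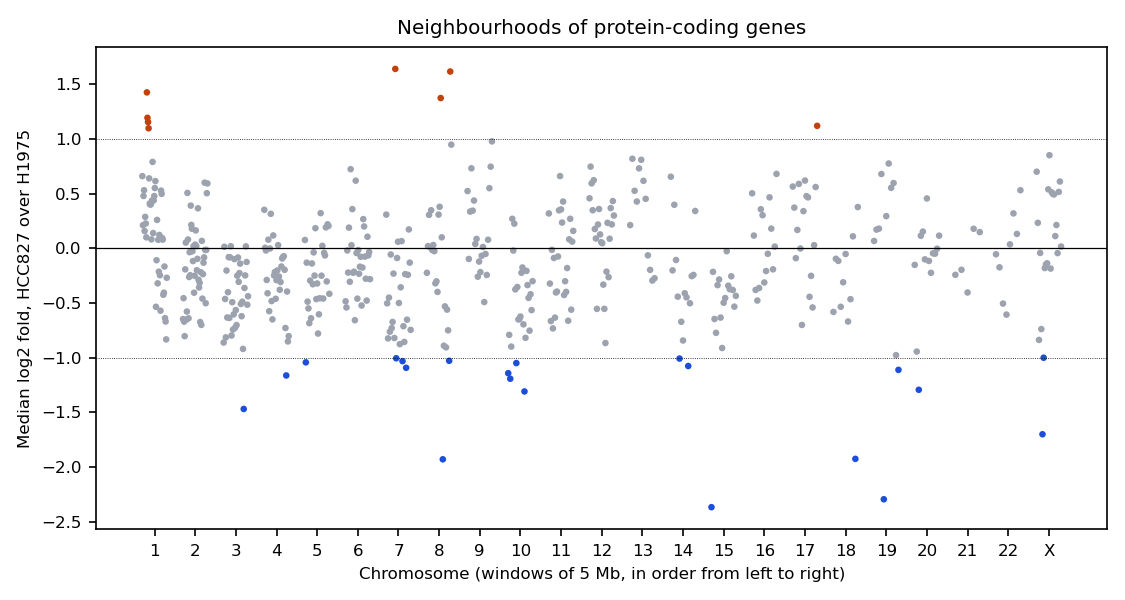
Median log2 fold of HCC827 over H1975 (vertical axis) of tested protein-coding genes in each of 506 windows of 5 Mb, in order along the chromosomes (horizontal axis). The dotted lines mark 1 and -1, with 8 windows above and 21 below them, in colour.

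The zinc finger genes of chromosome 19, whose KRAB-containing products silence transposable elements in chromatin, were mostly lower in HCC827. Of 237 chromosome 19 genes with a ZNF name 182 (76.8%) were lower and 14 higher in HCC827, with a median log2 fold of -1.42. On other chromosomes 82 of 222 ZNF genes were lower and 50 higher (median -0.20), and chromosome 19 genes without a ZNF name had 466 of 1003 higher and 242 lower (median 0.39). In the window from 20 to 25 Mb, 30 of 33 genes were lower and 1 higher (median -2.30). Promoters of this window share a sequence, and 6 are shown because their genes span the range of differences. CCAATCAG, sought on both strands, was present in all 26 window genes with a RefSeq promoter entry, against 847 of 14091 tested genes (6.01%). The window's genes are paralogs, and other chromosome 19 ZNF genes were not counted apart, so these figures only describe the window. The stretches read 5′ to 3′ on the gene's strand of GRCh38.p14, with the motif in capitals, at chr19:22832217-22832266 (ZNF723, plus strand), chr19:21082096-21082174 (ZNF714, plus), chr19:22010967-22011044 (ZNF208, minus), chr19:20167108-20167186 (ZNF486, plus), chr19:20077898-20077947 (ZNF90, plus) and chr19:23687213-23687284 (ZNF675, minus).
ZNF723: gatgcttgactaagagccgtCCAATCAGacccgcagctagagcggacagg
ZNF714: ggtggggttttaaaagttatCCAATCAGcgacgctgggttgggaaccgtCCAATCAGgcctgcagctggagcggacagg
ZNF208: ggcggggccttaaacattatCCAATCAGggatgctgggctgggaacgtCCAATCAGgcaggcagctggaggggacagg
ZNF486: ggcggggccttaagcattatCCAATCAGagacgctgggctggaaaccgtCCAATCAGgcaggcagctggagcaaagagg
ZNF90: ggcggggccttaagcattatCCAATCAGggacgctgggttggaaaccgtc
ZNF675: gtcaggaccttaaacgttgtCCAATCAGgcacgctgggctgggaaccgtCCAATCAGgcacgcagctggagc

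Genes with this promoter sequence ranged from nearly unseen to higher in HCC827. ZNF723 had 3 counts over the HCC827 libraries, against 4.14, 4.66 and 4.43 CPM in H1975, a ratio of 364 with a 95% counting interval of 124 to 1767. ZNF714 had 0.269, 0.260 and 0.155 CPM in HCC827, against 14.2, 14.5 and 14.5 CPM in H1975 (-5.95 ± 0.22, adjusted p = 1.07e-08). ZNF486 had 2.03, 1.76 and 2.43 CPM in HCC827, against 12.8, 15.5 and 14.4 CPM in H1975 (-2.78 ± 0.17). ZNF208 was lower at -5.64, and ZNF676, with no promoter entry, had 0.0647, 0.0355 and 0.0423 CPM in HCC827, against 30.6, 29.1 and 28.7 CPM in H1975 (-9.21 ± 0.23, adjusted p = 1.61e-09). ZNF90 was the window's higher gene, with 127, 114 and 104 CPM in HCC827, against 62.4, 62.5 and 63.6 CPM in H1975 (0.87). ZNF675 had 164, 122 and 145 CPM in HCC827 and 121, 110 and 118 CPM in H1975, which was not called (0.31, adjusted p = 0.0759) but was called higher in HCC827 without HCC827 replicate 2 and with pseudogenes left out. A ribosomal protein pseudogene lies within the span of ZNF675, and ZNF90 and ZNF676 share exons or counts with other annotated genes. The cluster's genes are paralogs, and how reads were split among them is not known.

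**Figure D5:**
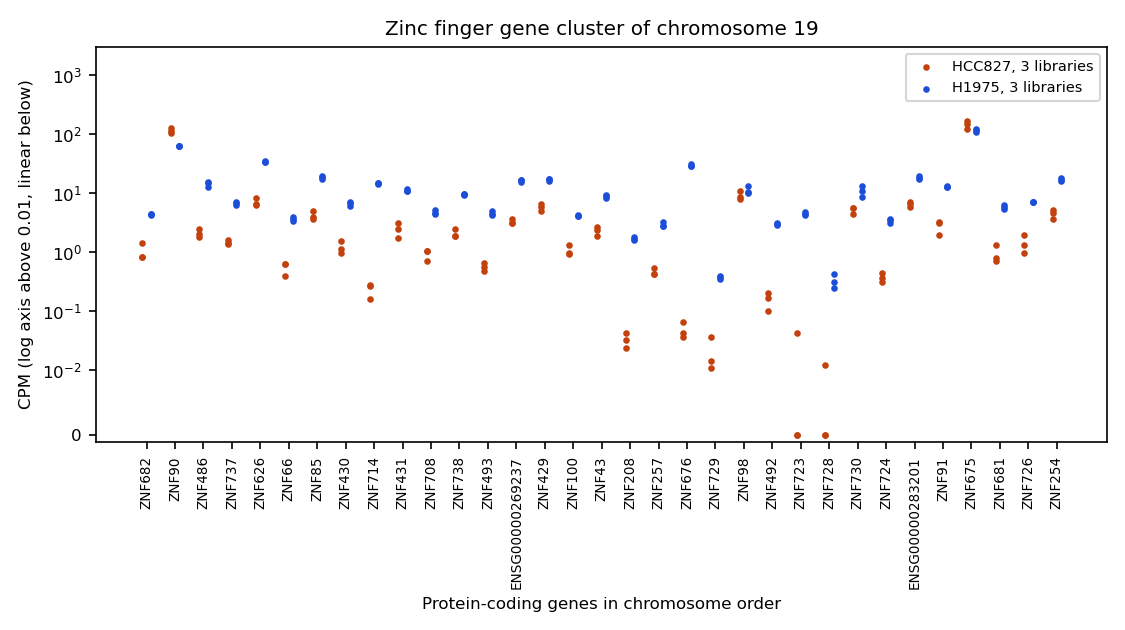
Level in CPM (log axis above 0.01, linear below) of the protein-coding genes in the chromosome 19 window, in chromosome order, with 3 HCC827 libraries to the left of 3 H1975 libraries for each gene. For 30 of 33 genes the HCC827 level was called lower, ZNF90 was called higher, and ZNF675 lay between 110 and 164 CPM in all 6 libraries.

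Overlap between genes limits what single-gene levels show. Of the genes tested 47.3% share exon bases with another gene, 10111 with one on the opposite strand, and 569 of 15661 protein-coding genes (3.63%) hold within their span a pseudogene with 50 to 200% of their own count. Among the 7050 protein-coding genes with no exon overlap and no gene of any kind in their span at such a count, 2071 were higher and 2301 lower, and 62.0% were called, close to the share of all genes tested. LANCL2, VOPP1, LCN2, CCL2, MT1E, KRT19 and COL5A1 are among them by annotation.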

How the data were processed

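Only the 6 ONT libraries were used; the Illumina and PacBio libraries were not analysed here. The deposited values are counts, whole reads per gene without normalization, in 1 table per library. The submitters' processing notes name minimap2 2.17, featureCounts and the GRCh38 build. What annotation release and strand setting were used, and how reads matching several places were treated, is not stated in the sources used here. Each table lists 58797 features, of which 76 are spike-ins and were left out of library sizes and tests, and 45 second copies of genes shared by the sex chromosomes were added to the X copy, leaving 58676 genes. GENCODE release 44 matched 58207 of them by Ensembl identifier and gave symbols, biotypes and coordinates.

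The lines were compared with edgeR 4.0.16 in R 4.3.3 (TMM scaling, filterByExpr by line, robust quasi-likelihood fit, two-sided, Benjamini-Hochberg adjustment over all genes tested, threshold 0.05). The TMM factors were 0.797, 0.906 and 0.776 in HCC827 and 1.20, 1.21 and 1.22 in H1975, so CPM values rest on that scaling. Standard errors were taken from the log2 fold and its F. Where a line had 0 counts, its 3 libraries together were set to 3 counts. For 1 to 3 counts the ratio has an exact Clopper-Pearson 95% interval. limma 3.58.1 and DESeq2 1.42.0 served as alternatives. Promoters came from RefSeq's GRCh38.p14 table. Members, gene lists and tests were chosen with earlier results of these data known. Named genes were those of greatest log2 fold or CPM difference, the 3 leading called members each way of each list, every member of short or marker lists, the genes of extreme windows, and genes at 0 in one line. Some results are not reported here.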

Additional observations from a re-analysis of the deposited data

How the results depend on the processing

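No gene called both in the fit reported above and in an alternative turned its direction. Over all genes, the direction of calls that an alternative lost was not counted. The filter of 1 CPM in 3 libraries tested 12702 of the 17163 calls, protein-coding genes alone 9891, pseudogenes left out 14197 and thinning 16994. Testing against a fold of 1.5 left 10948 genes called, 5370 higher and 5578 lower in HCC827, and fitting protein-coding genes alone gave 10033 called, 4953 higher and 5080 lower, since fewer genes were tested. Leaving out 1 library at a time gave 14953 to 18655 called, 7398 to 9235 higher and 7555 to 9420 lower. The most calls came without HCC827 replicate 2, where 16519 of the 17163 calls were kept. DESeq2 called 16790 genes, limma-voom 17180, RLE size factors 17166, thinning to the smallest library 16940, no filter 18734 and a filter of 1 CPM in 3 libraries 12722. With the replicate number as a block 16320 genes were called, 8020 higher and 8300 lower. The numbers only name the samples: deviations of same-numbered libraries correlated at 0.04, -0.21 and -0.12 across genes, and not every library correlated best with its own number. Of 520 called genes under the naming rule 450 kept their call under all alternatives and 70 lost it in at least 1. Windows of 10 Mb gave 6 medians above 1 and 11 below -1. Overlap, paralogs and pseudogenes leave single levels uncertain, and the intervals and floors carry counting error alone, as reads copied by PCR are not separate molecules.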
